A study of Homo sapiens with 6 samples.

Results

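The nucleolar ribosome biogenesis factors are 50 protein-coding genes, taken by symbol from the 58735 features of the count table. They encode parts of the machinery that transcribes, modifies, cuts and folds ribosomal RNA in the nucleolus, and all 50 symbols were found once each. Human cells labelled BE(2)-C, a neuroblastoma line, carried either a non-silencing lentiviral hairpin (NS, n = 3 libraries, genotype given as wild type) or a hairpin against ACSS2 (shACSS2, n = 3 libraries, genotype given as ACSS2 deficiency). ACSS2 makes acetyl-CoA from acetate in the cytosol and nucleus. Both lines had been infected with lentivirus and selected with puromycin, and both grew in DMEM with calf serum and antibiotics. The titles call the second group siACSS2, while the protocol describes a stable hairpin and in 1 place names shNgBR. The labels give neither the hairpin sequence nor whether a line is 1 clone or a pool. Whether a group's libraries stem from separate cultures is not stated, so a p-value here reflects the spread of these libraries alone, which may be technical.

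Ribosome production starts with transcription of a long ribosomal RNA precursor by RNA polymerase I. Small nucleolar ribonucleoproteins (snoRNPs) then mark it chemically: box C/D particles add methyl groups to ribose and box H/ACA particles turn uridine into pseudouridine. Large assemblies, among them the small subunit processome, cut and fold the RNA as ribosomal proteins join, and separate sets of factors finish the small (40S) and large (60S) subunits. Many of these genes are classic targets of MYC family transcription factors, which bind the E-box CACGTG, and high nucleolar activity is a known feature of MYCN-driven neuroblastoma.

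Library totals ran from 16617885 to 20831599 counts, and 16210 genes passed the expression filter. ACSS2 had 366, 387 and 438 counts in the NS libraries and 75, 84 and 110 in those of shACSS2 (log2 fold change −1.94 ± 0.15 SE, adjusted p = 1.95e-06 with edgeR). For its log2 CPM an exact permutation test, two-sided, gave p = 0.1, and no smaller p can come from 3 libraries against 3. Of 16 adrenergic neuroblastoma markers, 3 had a mean of at least 5 CPM (NEFM, GATA3 and ISL1), and the whole list summed to 189.5 to 211 CPM in NS and 117 to 181 CPM in shACSS2. The defining markers PHOX2A, TFAP2B, TH and SOX11 had 0 counts in every library, which over all 108405728 counts allows up to 0.0277 CPM (3 counts, counting error only). MYCN had 7 to 40 counts in a library, so several markers that define the labelled line were absent or near 0. Of 10 mesenchymal neuroblastoma markers, 7 averaged 5 CPM or more, and that list summed to 712 to 738 CPM in NS and 622 to 668 CPM in shACSS2. The part of either marker list in the results that follow was not tested. Mitochondrially encoded genes held 1.25 to 2.20% of counts in NS and 0.692 to 0.775% in shACSS2, and with those genes left out the members' calls were the same 8.

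Most nucleolar factors were slightly higher in the shACSS2 libraries, and few passed the test one by one. NOP56, NPM1, NOB1, IMP4, MRTO4 and GNL3 rose by 1.24 to 1.45-fold, while UTP20 and RRP1B fell. The remaining 41 of the 49 tested members did not pass (quasi-likelihood test of edgeR, with p adjusted over all 16210 genes by Benjamini-Hochberg and a threshold of 0.05). The 6 rises are 12.2% of the tested members, where 7.48% of all tested genes rose, and the 2 falls are 4.08%, where 9.64% of all genes fell. In both directions together 16.3% of members and 17.1% of all genes were called, so the share of called members was near the background. The fitted log2 fold change was above 0 in 42 of 49 members, with a median of 0.21 and a range of −0.50 to 0.54. Over all tested genes 50.3% were above 0 and the median was 0.0025. When libraries were scaled by their totals alone, without TMM composition factors, 37 of 49 members were above 0, at a median of 0.13 against −0.070 for all genes. Calls over all genes were then 734 higher and 2108 lower, where TMM scaling gave 1213 and 1563. The number of members that rose was 4 without NS replicate 1 or without NS replicate 3, where 1.87% and 2.20% of all genes rose, and 12 without shACSS2 replicate 1, where 10.98% did. The number that fell was 0 without NS replicate 1, shACSS2 replicate 2 or shACSS2 replicate 3, where 4.28%, 6.87% and 6.95% of all genes fell. It was 1 without NS replicate 2 or NS replicate 3, where 8.62% and 4.78% of all genes fell. The member counts did not always move with those over all genes. Without NS replicate 2, 9 members rose, where 6.85% of all genes did. Without shACSS2 replicate 3, 6 members rose, where 4.99% of all genes did. Leaving out NS replicate 3 gave a members' median of 0.145 against 0.0039 for all genes, with 39 of 49 members above 0.

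The level in each library showed the same lean. In 23 members (46.9%) every shACSS2 library was above every NS library, against 17.6% of all tested genes, and in 2 members every shACSS2 library was below, against 18.7%. The summed level of all 50 members was 8765, 9000.0 and 8488 CPM in NS and 10648, 10423 and 10176 CPM in shACSS2. All 3 shACSS2 sums were above all NS sums, a ratio of means of 1.19. NPM1 alone made up 21.4 to 23.0% of that sum in NS and 26.2 to 27.1% in shACSS2, and without it the ratio was 1.13. CPM are shares of a library, so fewer cells of a type, less RNA per cell and a change in total RNA cannot be told apart here.

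**Figure D1:**
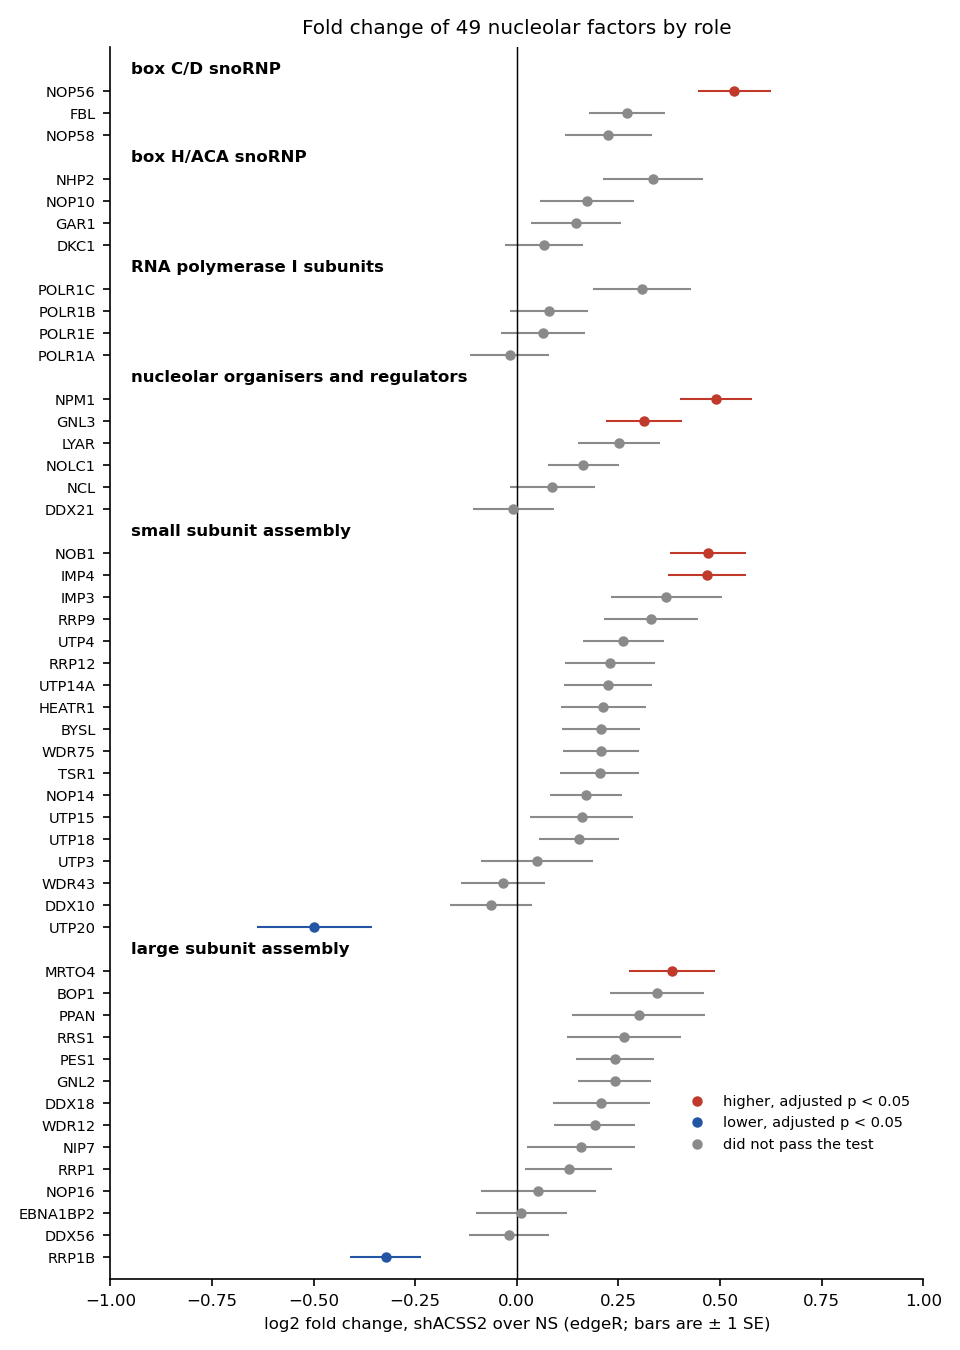
The x axis is the log2 fold change of shACSS2 over NS, and each of the 49 tested members is a point with a bar of 1 SE either way, grouped by role. Points lie right of 0 for 42 members; 6 passed the test as higher (red) and 2, UTP20 and RRP1B, as lower (blue).

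The members differed widely in abundance. Per kilobase of annotated exon, NPM1 had the highest NS level at 513 normalised CPM per kilobase, followed by FBL at 179, NCL at 149.5 and NOP10 at 126 on the same scale. The NS values of NCL and NOP10 overlapped, so their order does not hold beyond the spread. UTP20 at 4.92 and PPAN at 3.09 were the lowest of the tested members on this scale. The exon length is the union of all annotated exons, so a gene with many annotated forms is placed too low.

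**Figure D2:**
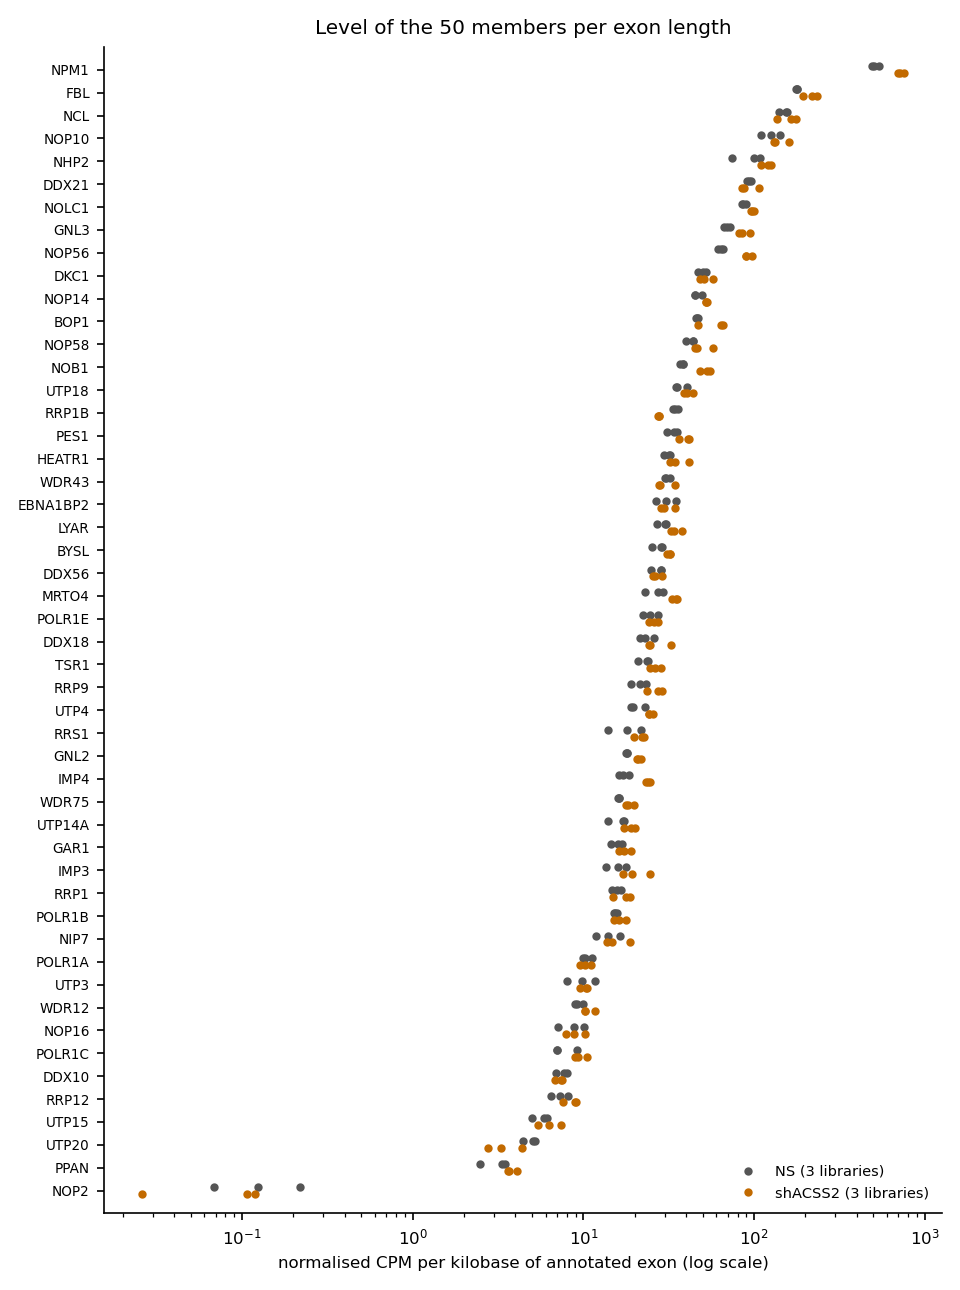
The x axis is the normalised level per kilobase of exon on a log scale, and each row is a member with its 3 NS libraries in grey and 3 shACSS2 libraries in orange. NPM1 leads, and NOP2 stands apart at the bottom.

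NOP2, which encodes a nucleolar RNA methyltransferase of the large subunit, could not be tested. It had 18, 11 and 7 counts in NS and 8, 2 and 10 in shACSS2, or 0.137 normalised CPM per kilobase in NS. Its gene (chromosome 12, 6556863 to 6568691, minus strand, GRCh38) shares exons on the same strand with AC006064.6 (chromosome 12, 6556886 to 6607367), a gene model that also spans part of CHD4 and had 0 counts in every library. The labels do not say how reads that match both models were counted, and its part in the low counts was not tested. PPAN, a large subunit factor, has a like neighbour in the read-through gene PPAN-P2RY11, which had 2 counts in all. PPAN had 121 to 189 counts in a library.

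The box C/D particle held the member with the largest rise. NOP56 (ENSG00000101361, chromosome 20, 2652145 to 2658393, plus strand, GRCh38 as for all genes below) encodes a core scaffold protein of these particles. It stood at 343, 357 and 331 CPM in NS and 524, 485 and 487 CPM in shACSS2. Every shACSS2 library lay above every NS library, and NOP56 rose (log2 fold change 0.54 ± 0.089 SE, adjusted p = 0.00113 with edgeR) between means of 344 ± 13.0 and 499 ± 22.3 CPM (SD, n = 3 in each group). The gene carries 5 annotated snoRNA genes within its bounds (SNORA51, SNORD56, SNORD57, SNORD86 and SNORD110). Its partner NOP58 stood at 144, 145 and 131 CPM in NS and 191, 153 and 148 CPM in shACSS2, with shACSS2 replicate 1 well above the other libraries. FBL, the methyltransferase fibrillarin, stood at 389.7, 384 and 390.0 CPM in NS and 423, 508 and 475 CPM in shACSS2, and there shACSS2 replicate 1 was the lowest of its group. Their log2 fold changes were 0.23 ± 0.11 and 0.27 ± 0.094 (± SE, as in the values below). Neither passed (edgeR adjusted p = 0.158 and 0.0563). FBL gained a call in 3 of the 19 alternatives: DESeq2, the GC correction, and without shACSS2 replicate 1. NOP58 gained 1, with the GC correction. For all 3 genes every shACSS2 library was above every NS library, as for 17.6% of all tested genes. The summed level of the 3 genes went from 872 ± 17.4 to 1131 ± 19.2 CPM (SD, n = 3 each).

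None of the 4 core proteins of box H/ACA particles passed. With edgeR 1 of the 4 had an unadjusted p under 0.05, which 32.7% of all tested genes had, and DESeq2 and voom called 0 after adjustment. NHP2, which binds the guide RNA, had the smallest p. It gained a call in 4 of the 19 alternatives: no count filter, the replicate block, the block with GC and length correction, and without NS replicate 2. It stood at 151, 164 and 113 CPM in NS and 183, 191 and 165 CPM in shACSS2, with NS replicate 3 the lowest, and the groups were separate by a narrow margin (log2 fold change 0.33 ± 0.12 SE, adjusted p = 0.0697 with edgeR). The small structural subunit NOP10 and the outer subunit GAR1 gave 0.17 ± 0.12 and 0.15 ± 0.11 on the log2 scale. For DKC1, the pseudouridine synthase dyskerin, the value was 0.067 ± 0.10, which was −0.0055 with library totals.

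None of the 4 RNA polymerase I subunits among the members passed. Further genes of this machinery, outside the 50, are described with the wider pathway. With edgeR 1 of the 4 members had an unadjusted p under 0.05 (32.7% of all genes), and DESeq2 and voom called 0 after adjustment. POLR1C gained a call in 3 of the 19 alternatives: the GC correction, the replicate block with GC and length correction, and without NS replicate 2. POLR1C, a subunit shared with RNA polymerase III, stood at 39.1, 50.9 and 39.0 CPM in NS and 58.5, 51.7 and 49.5 CPM in shACSS2. NS replicate 2 reached the level of the shACSS2 libraries, so the groups overlapped (log2 fold change 0.31 ± 0.12 SE, adjusted p = 0.0893 with edgeR). The log2 fold changes of the other 3 members were −0.018 ± 0.10 for POLR1A, the largest catalytic one, 0.079 ± 0.10 for POLR1B, its partner in catalysis, and 0.065 ± 0.10 for POLR1E. The signs of POLR1A and POLR1E changed under some alternatives, given with the limits.

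Among 6 nucleolar organisers and regulators, 2 rose (33.3%) and 0 fell, where 7.48% of all tested genes rose and 9.64% fell. NPM1 (ENSG00000181163, chromosome 5, 171387116 to 171411137, plus strand), which encodes nucleophosmin, the abundant chaperone of the outer nucleolus, stood at 1877, 2069 and 1942 CPM in NS and 2882, 2726 and 2665 CPM in shACSS2. The groups were far apart relative to their spread, and NPM1 rose (log2 fold change 0.49 ± 0.088 SE, adjusted p = 0.00201 with edgeR) between means of 1963 ± 98.1 and 2758 ± 112 CPM (SD, n = 3 in each group). NPM1 has 45 annotated NPM1P pseudogenes that can share its reads, and those together held 1.64% of the number of NPM1 counts. GNL3 (chromosome 3, 52681156 to 52694492, plus strand), the GTPase nucleostemin, stood at 231, 240.4 and 223 CPM in NS and 312, 281 and 269 CPM in shACSS2. It rose (log2 fold change 0.31 ± 0.093 SE, adjusted p = 0.0306 with edgeR) between means of 231 ± 8.88 and 287 ± 22.2 CPM (SD, n = 3 in each group), with shACSS2 replicate 1 the highest library. The call of GNL3 ended without NS replicate 1, without NS replicate 3 or without shACSS2 replicate 2 (edgeR adjusted p = 0.133, 0.13 and 0.0619), with library totals (0.0711) and with the gene length correction (0.0667). LYAR, a zinc finger protein of the nucleolus, and NOLC1, a chaperone of snoRNPs, gave log2 values of 0.25 ± 0.10 and 0.16 ± 0.087. Nucleolin (NCL) gave 0.087 ± 0.10 and the RNA helicase DDX21 −0.0084 ± 0.10. In these last 2 genes the groups overlapped, with shACSS2 replicate 1 the lowest library of its group for NCL and the highest for DDX21.

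**Figure D3:**
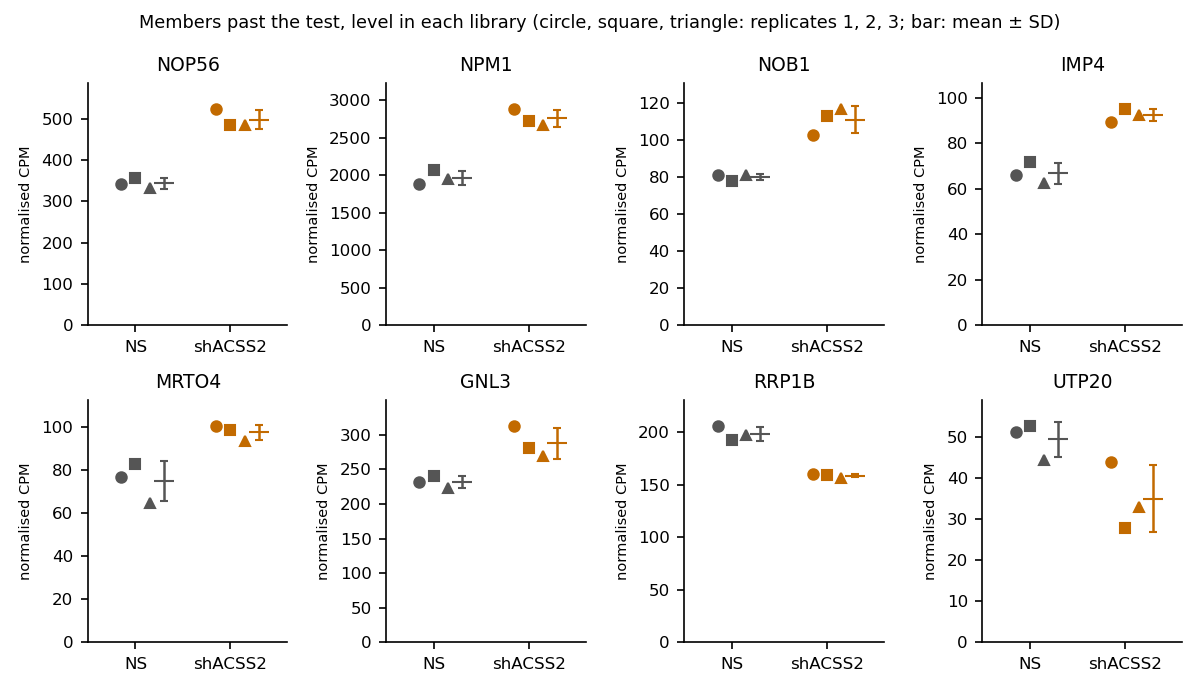
Each panel shows 1 of the 8 members past the test, with normalised CPM on the y axis from 0 and the libraries of NS and shACSS2 as points beside the mean and SD. The 2 groups do not overlap in any of the 8 panels.

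In small subunit assembly, 2 of 18 members rose (11.1%) and 1 fell (5.56%), where 7.48% of all tested genes rose and 9.64% fell. IMP4 (chromosome 2, 130342225 to 130347810, plus strand), a protein of the U3 snoRNP that directs the early cuts, stood at 66.2, 71.8 and 62.6 CPM in NS and 89.6, 95.2 and 92.7 CPM in shACSS2. IMP4 rose (log2 fold change 0.47 ± 0.10 SE, adjusted p = 0.00434 with edgeR) between means of 66.8 ± 4.66 and 92.5 ± 2.78 CPM (SD, n = 3 in each group). NOB1 (chromosome 16, 69741867 to 69754940, minus strand), the endonuclease that makes the final cut of 18S ribosomal RNA, stood at 80.8, 77.9 and 81.1 CPM in NS and 103, 113 and 117 CPM in shACSS2 and rose (log2 fold change 0.47 ± 0.094 SE, adjusted p = 0.00377 with edgeR) between means of 80.0 ± 1.78 and 111 ± 7.16 CPM (SD, n = 3 in each group). For both genes the 3 shACSS2 libraries lay above all NS libraries, and both calls held under all 19 alternatives. Both also share exon sequence with a gene on the opposite strand (CCDC115 and AC092115.3), so reads of the partners may be included if the counting ignored strand, a setting the labels do not state. MRTO4 and GNL3 have such partners too (EMC1 and GLT8D1).

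UTP20 was the largest fall. UTP20 (chromosome 12, 101280109 to 101386616, plus strand) encodes a very large scaffold protein of the small subunit processome. It stood at 51.0, 52.5 and 44.4 CPM in NS and 43.8, 27.8 and 33.0 CPM in shACSS2. The lowest NS library and the highest shACSS2 library, shACSS2 replicate 1, were close together at 44.4 and 43.8 CPM. UTP20 fell (log2 fold change −0.50 ± 0.14 SE, adjusted p = 0.0251 with edgeR) between means of 49.3 ± 4.34 and 34.9 ± 8.17 CPM (SD, n = 3 in each group). The call ended without NS replicate 1 (edgeR adjusted p = 0.0997), NS replicate 2 (0.0783), shACSS2 replicate 2 (0.101) or shACSS2 replicate 3 (0.076), and with the gene length correction (0.0887).

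The other 15 small subunit members did not pass. IMP3, a partner of IMP4 in the U3 snoRNP, stood at 40.7, 45.6 and 34.9 CPM in NS and 63.3, 43.9 and 49.1 CPM in shACSS2. Its shACSS2 replicate 1 was far above the rest, and shACSS2 replicate 2 lay below the highest NS library. RRP9, which binds the U3 RNA, stood at 36.5, 33.8 and 30.1 CPM in NS and 37.1, 45.6 and 43.2 CPM in shACSS2, all shACSS2 libraries above NS. The log2 fold changes were 0.37 ± 0.14 for IMP3 and 0.33 ± 0.12 for RRP9 (edgeR adjusted p = 0.0746 and 0.0609). IMP3 gained a call in 3 of the 19 alternatives and RRP9 in 4, DESeq2 among them for RRP9. For the tested members of the UTP-A part of the processome the values were 0.26 for UTP4, 0.21 for HEATR1, 0.16 for UTP15, 0.21 for WDR75 and −0.033 for WDR43. UTP18 of the UTP-B part had 0.15, UTP14A, which activates a helicase, 0.22, and UTP3 0.050. Among factors that act on later particles, RRP12, BYSL and TSR1 had 0.23, 0.21 and 0.20. NOP14 had 0.17 and the helicase DDX10 −0.064. In 10 of the 18 members (55.6%) every shACSS2 library was above every NS library, against 17.6% of all tested genes.

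In large subunit assembly, 1 of 14 tested members rose and 1 fell (7.14% each). These shares are near those of all tested genes, of which 7.48% rose and 9.64% fell. MRTO4 (chromosome 1, 19251539 to 19260128, plus strand), a ribosomal P0 relative that holds the place of the stalk on the maturing 60S particle, stood at 76.9, 82.7 and 64.9 CPM in NS and 100.3, 98.7 and 93.4 CPM in shACSS2. MRTO4 rose (log2 fold change 0.38 ± 0.10 SE, adjusted p = 0.0214 with edgeR) between means of 74.8 ± 9.11 and 97.5 ± 3.61 CPM (SD, n = 3 in each group). Its lowest library was NS replicate 3, and without that library the call ended (edgeR adjusted p = 0.132), as it did without NS replicate 1 (0.0842) or shACSS2 replicate 2 (0.0537).

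RRP1B was the large subunit member that fell. RRP1B (chromosome 21, 43659548 to 43696079, plus strand), a chromatin-bound relative of the processing factor RRP1, stood at 206, 192 and 197 CPM in NS and 159.8, 159 and 157 CPM in shACSS2. The shACSS2 libraries were nearly equal and all below NS, and RRP1B fell (log2 fold change −0.32 ± 0.088 SE, adjusted p = 0.0206 with edgeR) between means of 198 ± 6.72 and 159 ± 1.63 CPM (SD, n = 3 in each group). RRP1 itself did not pass, at a log2 value of 0.13 ± 0.11. The RRP1B call ended without NS replicate 1 (edgeR adjusted p = 0.122), NS replicate 3 (0.0698), shACSS2 replicate 2 (0.0628) or shACSS2 replicate 3 (0.0794).

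The PeBoW complex, which joins BOP1, PES1 and WDR12 and is needed for 60S maturation, had no member past the test. BOP1 had the largest fold change of the 3 at 0.34 ± 0.12 (edgeR adjusted p = 0.0524). BOP1 gained a call in 7 of the 19 alternatives, among them DESeq2, upper quartile scaling, no count filter, the replicate block and the fit without shACSS2 replicate 1. It stood at 172, 175 and 169 CPM in NS and 174, 243 and 238 CPM in shACSS2, where shACSS2 replicate 1 lay among the NS libraries and the other shACSS2 libraries lay well above them. PES1 and WDR12 had 0.24 ± 0.10 and 0.19 ± 0.10. The GTPase GNL2, which acts on 60S particles before export, had 0.24, and the helicase DDX56 −0.020. GNL2 (edgeR adjusted p = 0.0737) gained a call in 4 of the 19 alternatives, DESeq2 among them. The helicase DDX18 stood at 181, 204 and 168 CPM in NS and 256, 194 and 189 CPM in shACSS2, so that shACSS2 replicate 1 was above all others while the remaining 5 libraries overlapped. Its log2 fold change was 0.21 ± 0.12. RRS1, which brings the 5S RNA particle into the 60S precursor, had 0.26, and the 60S precursor factors NIP7, PPAN, NOP16 and EBNA1BP2 had 0.16, 0.30, 0.053 and 0.011.

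The 3 shACSS2 libraries differed among themselves in a way that followed base composition. Over the 49 tested members, the departure of shACSS2 replicate 1 from the mean of the other 2 had a Spearman coefficient of −0.63 with the GC content of the transcript, against 0.56 for replicate 2 and 0.50 for replicate 3. The departures of a gene cancel out over the 3 libraries, so these coefficients are not separate observations. They are across genes of the same libraries and are a description. Among the 16 members with the lowest GC content (37.7 to 44.8%), shACSS2 replicate 1 was the highest library of its group in 15. Among the 16 with the highest (53.5 to 65.2%), it was the lowest in 9. UTP20, at 42.3% GC, had the largest positive departure of replicate 1 (0.53 on the log2 scale), and BOP1, at 65.2% GC, the largest negative one (−0.47). IMP3 went against this order, with 59.4% GC and a departure of 0.44, as did NCL, with 47.2% GC and −0.32. Over all 16201 genes with a GC value, the coefficient was −0.60 for shACSS2 replicate 1 against its group mean. In the NS group, replicate 3 was the lowest library for 35 of the 49 tested members. Its departure had a coefficient of −0.19 with GC content over the members. Over all genes, against its group mean, that coefficient was 0.0048.

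**Figure D4:**
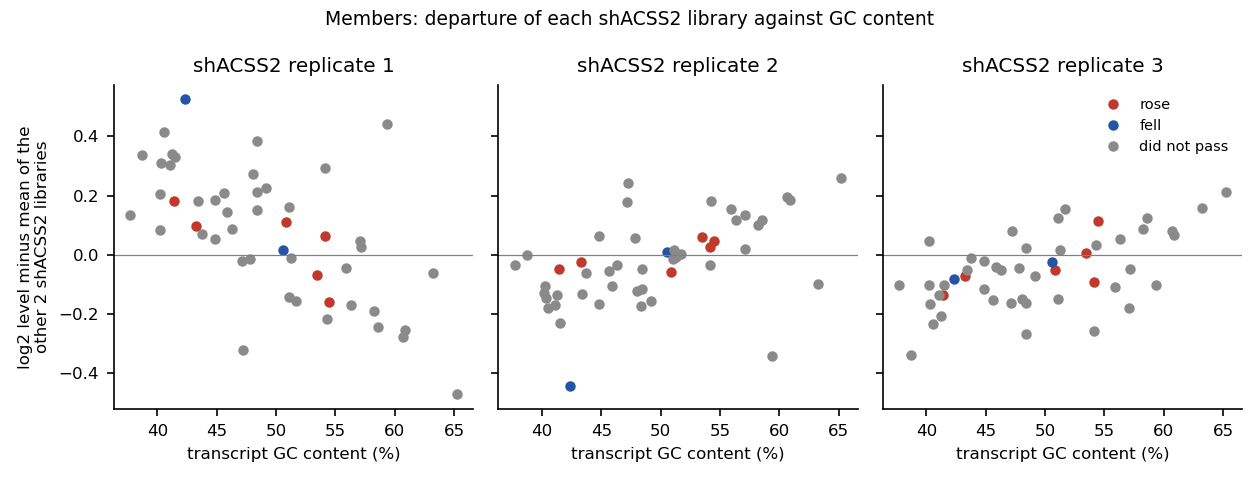
Each panel is 1 shACSS2 library, with the GC content of the transcript on the x axis and, on the y axis, the log2 level minus the mean of the other 2 shACSS2 libraries, for the 49 tested members. Points slope down in replicate 1 and up in replicates 2 and 3. The plotted values of a gene cancel out over the panels, so the slopes are not separate observations.

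With a smooth trend on GC content removed from each library, 19 members rose and 2 fell, where 14.1% of all genes rose and 13.9% fell under that fit. The 6 members above were among the 19, joined by FBL, NOP58, POLR1C, LYAR, HEATR1, RRP9, RRP12, UTP4, WDR75, BOP1, PES1, WDR12 and GNL2. Leaving out shACSS2 replicate 1 gave 12 rises and 2 falls, where 10.98% of all genes rose and 12.5% fell. The median log2 fold change of the members was 0.21 with the GC correction and 0.17 without shACSS2 replicate 1. In these fits the number of calls moved more than the size of the difference. The median was 0.18 with the gene length correction and 0.16 with the replicate block plus GC and length correction. Over the tested members, log2 fold change had a Spearman coefficient of −0.34 with exon length and 0.32 with GC content, as a description.

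Other ribosome biogenesis genes were measured alongside. Of 133 such genes in the table, all tested, 19 rose, 3 fell and 111 did not pass, and their median log2 fold change was 0.14. The rises are 14.3% and the falls 2.26%, where 7.48% of all tested genes rose and 9.64% fell. In both directions together 16.5% were called, near the 17.1% of all genes. The counts were 8 higher and 2 lower of 41 other small subunit factors, 2 higher and 0 lower of 46 other large subunit factors, and 6 higher and 0 lower of 25 subunits of the exosome, RNase MRP and related nucleases. In snoRNP assembly 1 of 10 rose, and in the RNA polymerase I machinery 2 of 11 rose and 1 fell. BUD23, which methylates 18S ribosomal RNA, rose from 104 ± 10.6 to 152 ± 3.29 CPM (SD, n = 3 each), which is 0.55 ± 0.10 on the log2 scale (± SE). LTV1 and EMG1, both small subunit factors, rose by 0.45 ± 0.11 and 0.44 ± 0.13 on the same scale. The exosome subunit EXOSC1 rose by 0.54 ± 0.11, and the RNase MRP proteins RPP40, RPP30 and POP7 by 0.48 ± 0.15, 0.45 ± 0.10 and 0.37 ± 0.11. WDR74 and RSL1D1 of the large subunit rose by 0.45 ± 0.12 and 0.37 ± 0.095, and RUVBL2, an ATPase that loads snoRNPs, by 0.38 ± 0.091. For RNA polymerase I, the subunits ZNRD1 and POLR1D rose by 0.40 ± 0.13 and 0.30 ± 0.091. In the same machinery TWISTNB went the other way, at −0.31 ± 0.11, with every shACSS2 library below every NS library. CD3EAP gave 0.32 ± 0.17 with overlapping groups, and neither TWISTNB nor CD3EAP passed (edgeR adjusted p = 0.058 and 0.213). The calls of BUD23 and EXOSC1 held under all 19 alternatives. Those of LTV1, EMG1, WDR74, RSL1D1, RUVBL2, RPP40, POP7, ZNRD1 and POLR1D ended without NS replicate 1 and without NS replicate 3, and that of RPP30 without NS replicate 1. The calls of RPP40, POP7, ZNRD1 and POLR1D ended in 8, 7, 7 and 6 of the 19 alternatives, library totals among them for all 4. Other single libraries whose absence ended a call were NS replicate 2 (RPP40), shACSS2 replicate 1 (RPP40, EMG1 and ZNRD1), shACSS2 replicate 2 (POP7, ZNRD1 and POLR1D) and shACSS2 replicate 3 (POP7, POLR1D and WDR74). Without shACSS2 replicate 1 the value of RPP40 was 0.29.

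Of the 3 falls in this wider group, FCF1 and TAF1C had larger fold changes than UTP20. FCF1, a nuclease-fold protein of the small subunit processome, fell from 76.7 ± 6.38 to 35.9 ± 1.63 CPM (SD, n = 3 each), which is −1.09 ± 0.10 on the log2 scale. TAF1C, a subunit of the promoter selectivity factor of RNA polymerase I, had −0.55 ± 0.11 and WDR36 of the UTP-B part −0.40 ± 0.13. The calls of FCF1 and TAF1C held under all 19 alternatives, while that of WDR36 ended in 8, among them leaving out any library other than shACSS2 replicate 1. Without shACSS2 replicate 1 the count of falls was 10, where 12.5% of all genes fell. Without NS replicate 1 or NS replicate 3 the count of rises was 3 each, where 1.87% and 2.20% of all genes rose.

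The proteins that these factors assemble into ribosomes were measured in the same libraries. Of 79 cytosolic ribosomal protein genes 56 rose and 0 fell, all 79 fold changes were above 0, and the median log2 fold change was 0.40. Of 77 tested mitochondrial ribosomal protein genes 22 rose and 0 fell, with a median of 0.28. The rises are 70.9% of the cytosolic and 28.6% of the mitochondrial list, where 7.48% of all tested genes rose and 9.64% fell. The members' median was 0.21, and the difference between the lists was not tested. Reads of cytosolic ribosomal protein genes can be split with their processed pseudogenes.

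**Figure D5:**
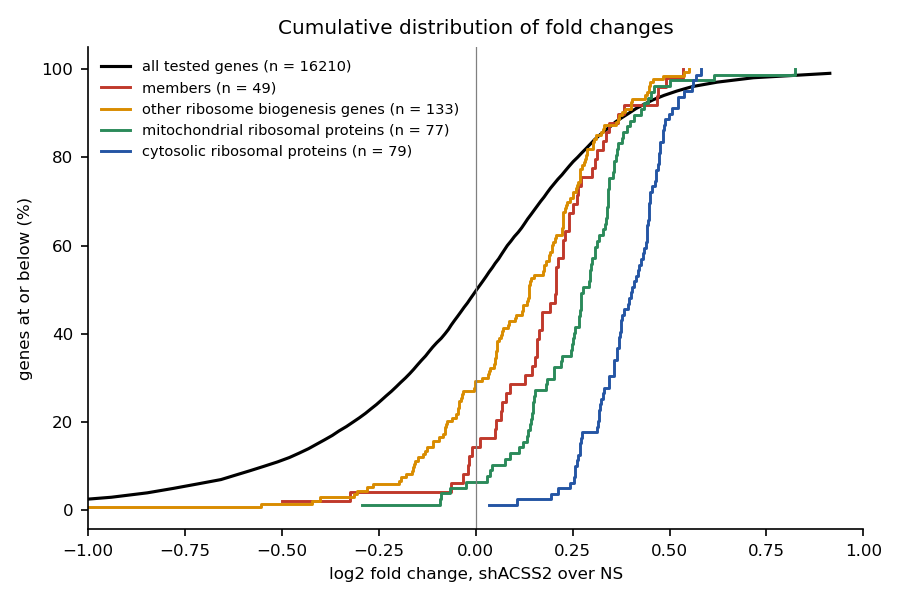
The x axis is the log2 fold change of shACSS2 over NS and the y axis the percentage of genes at or below it, for all tested genes and 4 gene lists. The members' curve crosses 50% at 0.21, between the curve of all genes and that of cytosolic ribosomal proteins at 0.40.

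The promoters of the members were searched for the E-box named above. RefSeq promoter windows (GRCh38.p14, 250 bases before to 50 after an annotated start) were matched by symbol for 42 of the 50 members, all but BOP1, DDX18, NOLC1, NOP58, POLR1E, RRP12, RRP1B and RRS1, and 20 of those (47.6%) held CACGTG, which reads the same on both strands. It was present for 12.6% of the 11161 tested genes with a window and 8.77% of all 27305 genes with one. The variant CACGCG on either strand was found for 14 of 42 members (33.3%, against 22.8% of tested genes), and the ETS-type motif CCGGAAG on either strand for 16 (38.1%, against 21.1%). CACGTG was present for 3 of the 6 members that rose (GNL3, IMP4 and MRTO4) and for UTP20, which fell, and absent from the windows of NOP56, NPM1 and NOB1. The median log2 fold change was 0.22 in the 19 tested members with CACGTG and 0.18 in the 22 tested members whose windows lack it. The windows of the 4 called members that hold it follow, with that of NOP56, the largest rise, for comparison. Each is written 5′ to 3′ on the strand of the gene, with CACGTG in capitals: GNL3 at chr3:52685782-52686081, IMP4 at chr2:130342647-130342946, MRTO4 at chr1:19251555-19251854, UTP20 at chr12:101279855-101280154 and NOP56 at chr20:2652382-2652681, all on the plus strand.
GNL3: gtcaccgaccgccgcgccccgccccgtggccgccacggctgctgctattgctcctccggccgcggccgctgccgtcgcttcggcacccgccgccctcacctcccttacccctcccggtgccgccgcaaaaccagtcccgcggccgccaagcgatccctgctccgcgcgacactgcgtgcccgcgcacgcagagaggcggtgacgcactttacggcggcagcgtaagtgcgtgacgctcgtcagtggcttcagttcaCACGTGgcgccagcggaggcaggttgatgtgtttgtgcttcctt
IMP4: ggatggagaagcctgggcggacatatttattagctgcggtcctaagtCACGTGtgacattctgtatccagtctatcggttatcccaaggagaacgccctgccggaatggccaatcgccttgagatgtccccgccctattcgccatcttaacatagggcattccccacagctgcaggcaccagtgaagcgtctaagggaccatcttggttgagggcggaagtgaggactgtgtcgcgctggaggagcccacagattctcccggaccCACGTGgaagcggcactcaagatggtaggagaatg
MRTO4: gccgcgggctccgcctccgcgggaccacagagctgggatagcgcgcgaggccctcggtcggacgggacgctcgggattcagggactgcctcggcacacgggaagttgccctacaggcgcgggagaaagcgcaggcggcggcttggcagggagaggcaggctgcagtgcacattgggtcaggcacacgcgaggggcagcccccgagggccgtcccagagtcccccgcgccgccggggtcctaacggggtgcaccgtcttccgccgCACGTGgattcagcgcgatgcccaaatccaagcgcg
UTP20: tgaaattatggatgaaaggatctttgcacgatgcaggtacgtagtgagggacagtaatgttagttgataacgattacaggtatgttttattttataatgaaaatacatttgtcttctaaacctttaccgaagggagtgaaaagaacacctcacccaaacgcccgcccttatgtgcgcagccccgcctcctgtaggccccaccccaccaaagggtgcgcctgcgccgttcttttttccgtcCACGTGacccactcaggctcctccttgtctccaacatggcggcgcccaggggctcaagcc
NOP56: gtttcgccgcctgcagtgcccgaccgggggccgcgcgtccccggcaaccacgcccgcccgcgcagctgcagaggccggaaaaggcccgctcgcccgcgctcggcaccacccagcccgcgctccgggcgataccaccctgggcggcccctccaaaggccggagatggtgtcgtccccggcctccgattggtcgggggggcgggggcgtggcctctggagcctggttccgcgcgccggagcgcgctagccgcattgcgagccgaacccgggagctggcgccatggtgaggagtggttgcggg
The first letter of CACGTG lay 6 bases after the start base in GNL3, 14 after it in MRTO4 and 10 before it in UTP20. IMP4 held a pair, 203 bases before and 15 after its start base. A match is a description of the letters and not a measured binding site.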

How the data were processed

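The 6 libraries are RNA sequencing, with an mRNA library kit per the labels, of cultured cells, 3 NS and 3 shACSS2, grouped by their titles. The authors deposited raw counts, whole numbers of reads for each gene. Per the submitters' processing notes, their tools included HISAT2 2.0.5 and featureCounts 1.5.0-p3, and the build was hg19. Settings for strand and multi-mapped reads: not given in the sources used here. Every one of the 58735 identifiers was found in GENCODE release 29, whose GRCh38 positions are printed; the build of the alignment may differ.

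The test was edgeR 4.0.16 under R 4.3.3 (TMM factors, default expression filter, robust quasi-likelihood fit, group as the only term), with Benjamini-Hochberg adjustment over 16210 genes at 0.05. CPM are TMM-normalised, SE is the absolute log2 fold change divided by the root of F, and "rose" and "fell" mean past this test. Log2 levels for departures used CPM plus 0.5. GC content is that of the longest annotated transcript. Python 3.11.15, pandas 2.3.3, numpy 2.4.6, scipy 1.17.1 and matplotlib 3.10.9 were used for tables and plots.

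The members and the lists of other genes, from textbook membership, were chosen with earlier results of these data known. Full statistics go to ACSS2, every member that fell, and in each role up to 4 called members with the largest change, or that with the smallest p where none passed; up to 4 called genes are named from each other list. BOP1, DDX18, FBL, IMP3, NOP58, RRP9 and the reads of NOP2 and PPAN were chosen for values in each library with those values known. The main fit used no pairing by replicate number. Deviations of same-numbered libraries correlated at −0.043, −0.066 and 0.11, which with 3 libraries in a group cannot exclude a pairing. Chi-square per degree of freedom between libraries of a group was 4.28 to 17.3, so all counted as replicates. The 19 alternatives, among them DESeq2 1.42.0 and voom in limma 3.58.1, are described at the end.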

Additional observations from a re-analysis of the deposited data

How the results depend on the processing

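Of 931 values of single members under 19 alternatives, 829 kept their direction and side of the threshold, 21 lost a call, 47 gained one and 34 changed sign; no call among members changed sign, and NOP2 is not included. The calls of NOP56, NPM1, IMP4 and NOB1 held under all 19, as did that of ACSS2. Members that rose numbered 10 with DESeq2 (8.78% of all genes), 19 with the GC correction (14.1%) and 19 with the replicate block plus GC and length correction (14.9%). Members that fell numbered 1 with the gene length correction, where 7.65% of all genes fell. At an adjusted p of 0.01, 4 members rose and 0 fell, where 2.04% and 4.19% of all genes did. At that threshold 1010 genes were called and 4 other ribosome biogenesis genes rose. Calls over all genes were 4533 with the GC correction and 4540 with the block plus GC and length. Other ribosome biogenesis genes that rose and fell numbered 10 and 6 with library totals, 46 and 6 with the GC correction, and 47 and 6 with the block plus GC and length. Of all genes 4.53% and 13.0%, 14.1% and 13.9%, and 14.9% and 13.1% did under these 3 fits. The replicate block alone gave 9 members that rose and 2 that fell among 2923 calls, where 7.91% of all genes rose and 10.1% fell. Since a pairing of the libraries by number was not established, the block is a check only. Not every library correlated best with its own number. With each library left out in turn, members that rose numbered 4 to 12, members that fell 0 to 2, all calls 1018 to 3931, other genes that rose 3 to 26 and other genes that fell 2 to 10. The members' median was 0.13 to 0.23 over all settings. Its difference from the median of all genes ran from 0.14 (without NS replicate 3) to 0.26 (no count filter). Rises made up 43.7% of calls over all genes, and 25.8% with library totals. Log2 fold changes that changed sign, none of them called, were DKC1 −0.0055, POLR1E −0.0083, UTP3 −0.023, NOP16 −0.020, EBNA1BP2 −0.060 with library totals; POLR1A 0.17, POLR1E −0.024, UTP3 −0.042, DDX10 0.030, NOP16 −0.019, EBNA1BP2 −0.033 with the gene length correction; and POLR1A 0.16, POLR1E −0.034, UTP3 −0.059, DDX10 0.039, NOP16 −0.025, EBNA1BP2 −0.050 with the block plus GC and length. With 1 library left out, ranges across 0 were POLR1A −0.069 to 0.035, POLR1E −0.0029 to 0.14, DDX21 −0.11 to 0.052, DDX56 −0.083 to 0.019, UTP3 −0.082 to 0.19, NOP16 −0.078 to 0.17, EBNA1BP2 −0.082 to 0.11, DKC1 −0.0046 to 0.12, WDR43 −0.14 to 0.025. The causes were not tested. Counting depth limits NOP2 and PPAN most.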

Other observations

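A 7-base sequence, ATGCTCA or TGCTCAA, was held by the annotated 3′ UTRs of 576 genes that fell and 75 that rose, and was first picked from these same fold changes, so what follows is a description. Counting 3′ UTRs of 50 bases or more, 6 of 48 tested members (12.5%) held it, against 18.0% of 13260 tested genes. They were NPM1 (0.49), RRP12 (0.23), GAR1 (0.15), DDX21 (−0.0084), DDX10 (−0.064) and UTP20 (−0.50), with log2 fold changes in brackets. UTP20 fell and NPM1 rose, where of all 2381 tested genes that held it 576 fell and 75 rose. Among the other pathway genes 16 of 131 (12.2%) held it: the 3 that fell (FCF1, TAF1C and WDR36), 2 that rose (POLR1D and RSL1D1) and 11 that did not pass. RRP1B, which also fell, did not hold it. Of all 1563 genes that fell, 576 held it. Since the sequence was picked from these fold changes, its presence in genes that fell is a description only. The median log2 fold change was 0.069 in the members that held it and 0.21 in those that did not. Over all tested genes the medians were −0.16 with it and 0.047 without it.

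Among the regulators that share the E-box, MYC went from 218 ± 4.55 to 262 ± 20.5 CPM (SD, n = 3 each) and did not pass (log2 fold change 0.27 ± 0.093 SE, edgeR adjusted p = 0.0582), and its partner MAX gave 0.12 ± 0.10. MXD1 and MXD4, which bind MAX in place of MYC and repress, fell, with log2 fold changes of −0.91 ± 0.18 and −0.49 ± 0.11, as did MGA, another MAX partner, at −0.35 ± 0.11. MYCN, at 1.75 ± 0.313 CPM in NS (SD, n = 3), also fell, at −1.14 ± 0.37. The call of MXD1 held under all 19 alternatives. That of MXD4 ended without NS replicate 1, that of MYCN with any single library left out, and that of MGA in 7 alternatives, among them without NS replicate 1, NS replicate 3, shACSS2 replicate 2 or shACSS2 replicate 3 and with the gene length correction (−0.12). MYC gained a call in 4, among them DESeq2 and the fit without shACSS2 replicate 1. Of the 11 genes of this network that were measured, 4 fell, 0 rose and 7 did not pass, where 9.64% of all tested genes fell and 7.48% rose. Among the 7 were MXI1, MXD3 and MNT, at −0.31, −0.0049 and −0.13. The annotated 3′ UTRs of MXD1, MXD4, MGA and MAX hold the 7-base sequence described above, and those of MYC and MYCN do not. No relation of that sequence to these falls, or of these genes to the members, was tested.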
